A study of Mus musculus with 38 samples.

Results

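Histone H3 acetylated at lysine 18 (H3K18ac) was mapped in unstimulated (M0) and stimulated (M1) mouse macrophages, and the regions described here are the 9872 H3K18ac peaks of M0 that shared no base with any H3K18ac peak of M1. They were chosen by measured values, the positions of the 41493 peaks of the deposited M0 list against those of the 42237 peaks of the M1 list, so that 23.8% of the M0 peaks are called absent in M1 and the other 31621 are called retained. The 4 deposited lists, 2 for H3K18ac and 2 for H3 lactylated at lysine 18 (H3K18la), hold 121754 peaks together. A peak missing from the M1 list was not called there, which is a statement about a peak caller's threshold and gives no level of the mark.

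All samples were primary bone marrow-derived macrophages of C57BL/6 mice, cells grown from bone marrow precursors in culture. M0 cells received no stimulus (0 h), and M1 cells received 5 ng/ml lipopolysaccharide (LPS), a bacterial membrane component, together with 12 ng/ml interferon gamma (IFNg) for 24 h. Each mark was measured in 1 chromatin immunoprecipitation (ChIP-seq) library per state, on chromatin digested with micrococcal nuclease, with 1 input library per state. RNA was sequenced in 4 libraries per group at 0, 4, 8, 16 and 24 h of LPS and IFNg, and at 8, 16 and 24 h in cells that also received lactic acid (LA) 4 h after LPS and IFNg. The dose of lactic acid is not given in the sources used here. The labels list LPS and IFNg as the treatment of the 0 h RNA libraries as well, and these are taken as unstimulated because their time is 0 h. Labels do not say whether replicate RNA libraries came from separate mice or cultures, so every p-value below measures only the spread between libraries.

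H3K18ac is placed by the acetyltransferases p300 and CBP and removed by deacetylases, and it is found at active promoters and enhancers. Lactylation of the same lysine uses lactate in place of acetate, so the same residue on one histone tail cannot carry both. In macrophages, LPS and IFNg drive a shift from a resting, often dividing cell towards an inflammatory cell that stops dividing, makes cytokines and nitric oxide and ferments glucose to lactate.

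Promoter windows of 6 genes that lie wholly under an absent peak are shown because these genes carry the RNA results below: 4 genes of cell division (Ccnb2, Plk1, Spc25 and Rrm2), 1 of cholesterol synthesis (Cyp51) and 1 of prostaglandin breakdown (Hpgd). Each window runs from 250 bases before the transcription start to 50 bases from it on, 5′ to 3′ on the strand of the gene, from RefSeq promoters of GRCm38.p6. Capitals mark CCAAT, the box bound by the factor NF-Y, and TTTGAA or TTTAAA, forms of the cell cycle homology region (CHR) of late cell cycle promoters, on either strand.
Ccnb2: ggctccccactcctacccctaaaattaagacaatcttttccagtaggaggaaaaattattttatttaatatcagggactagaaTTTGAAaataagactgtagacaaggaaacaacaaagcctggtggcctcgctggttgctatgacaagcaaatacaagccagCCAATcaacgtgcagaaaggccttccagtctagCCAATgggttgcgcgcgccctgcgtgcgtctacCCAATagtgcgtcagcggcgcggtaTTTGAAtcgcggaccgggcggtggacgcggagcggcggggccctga
Plk1: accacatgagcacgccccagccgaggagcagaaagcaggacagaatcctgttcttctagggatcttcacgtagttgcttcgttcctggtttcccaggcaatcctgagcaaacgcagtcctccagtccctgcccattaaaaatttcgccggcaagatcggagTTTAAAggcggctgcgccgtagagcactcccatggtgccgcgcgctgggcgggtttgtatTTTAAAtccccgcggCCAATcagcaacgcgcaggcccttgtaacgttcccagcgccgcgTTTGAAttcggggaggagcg
Spc25: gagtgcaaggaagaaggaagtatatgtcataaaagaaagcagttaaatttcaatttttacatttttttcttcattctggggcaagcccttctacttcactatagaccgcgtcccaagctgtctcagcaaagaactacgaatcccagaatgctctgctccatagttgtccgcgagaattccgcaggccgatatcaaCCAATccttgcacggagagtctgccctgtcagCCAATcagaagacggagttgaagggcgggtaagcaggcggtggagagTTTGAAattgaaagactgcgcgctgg
Rrm2: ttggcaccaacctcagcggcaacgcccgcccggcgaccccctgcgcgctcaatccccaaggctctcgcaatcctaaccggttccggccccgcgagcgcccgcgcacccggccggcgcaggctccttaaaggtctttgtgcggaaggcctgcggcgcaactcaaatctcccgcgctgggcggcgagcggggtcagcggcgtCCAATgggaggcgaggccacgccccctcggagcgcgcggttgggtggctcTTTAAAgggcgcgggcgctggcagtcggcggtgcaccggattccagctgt
Cyp51: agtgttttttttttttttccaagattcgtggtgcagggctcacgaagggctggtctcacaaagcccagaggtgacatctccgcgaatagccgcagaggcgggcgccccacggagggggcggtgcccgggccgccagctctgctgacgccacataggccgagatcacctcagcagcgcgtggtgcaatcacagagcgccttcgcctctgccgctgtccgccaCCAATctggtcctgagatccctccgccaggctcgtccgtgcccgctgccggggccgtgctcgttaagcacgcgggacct
Hpgd: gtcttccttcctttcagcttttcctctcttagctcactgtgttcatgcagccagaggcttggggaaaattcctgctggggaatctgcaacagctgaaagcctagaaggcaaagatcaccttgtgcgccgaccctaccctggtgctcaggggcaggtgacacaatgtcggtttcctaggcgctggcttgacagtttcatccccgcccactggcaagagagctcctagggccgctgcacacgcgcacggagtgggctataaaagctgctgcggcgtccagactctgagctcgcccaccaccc
The windows lie at chr9:70421505-70421804 (Ccnb2, minus strand), chr7:122159185-122159484 (Plk1, plus strand), chr2:69206164-69206463 (Spc25, minus strand), chr12:24708004-24708303 (Rrm2, plus strand), chr5:4104648-4104947 (Cyp51, minus strand) and chr8:56294302-56294601 (Hpgd, plus strand). Ccnb2 holds 3 CCAAT boxes and 2 copies of TTTGAA, and Spc25 holds 2 and 1. Plk1 has 1 CCAAT box, 1 TTTGAA and 2 TTTAAA, Rrm2 has 1 CCAAT box and 1 TTTAAA, and Cyp51 has 1 CCAAT box alone. No capital stands in the Hpgd window, so none of these letters occurs there.

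Absent peaks were narrower and weaker than retained ones, by values that the peak caller's threshold itself uses, and these are given as a description. Their median width was 855.5 bp against 1839 bp for retained peaks. Median fold enrichment over input was 3.36 against 4.25, and median -log10 q, the caller's adjusted significance, was 3.31 against 6.10. Absent peaks covered 11.4 Mb of the 112 Mb under M0 H3K18ac peaks. Among M0 peaks under 500 bp wide, 53.5% were absent in M1, and the share was 39.4% from 500 to under 1000 bp, 22.6% at 1000 to 2000 bp and 8.13% above 2000 bp. Of the 20896 M0 peaks with a -log10 q of at least 5, 1545 (7.39%) were absent. A -log10 q under 3 was given to 3794 absent peaks and one above 6 to 823.

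Absent peaks overlap no M1 H3K18ac peak by the rule, and their distances from such peaks varied widely. No background distance was computed to set beside these values. The nearest M1 H3K18ac peak was a median of 8.36 kb away, with quartiles of 3.23 and 23.3 kb. An M1 peak within 1000 bp was found for 475 absent peaks (4.81%), and 500 were more than 100 kb from any M1 peak. Just inside the rule, the 5 closest absent peaks ended 1 to 4 bp from an M1 peak, among them 1 in Sema4d with 4.00-fold enrichment. Just outside it, a 280 bp peak near Kcna3 shared 1 bp with an M1 peak and is counted as retained, as are 264 retained peaks with under 10% of their bases covered. At the other end, the median retained peak had 95.4% of its bases under M1 peaks.

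The 10 absent peaks with the highest -log10 q all overlapped an H3K18la peak in M0 and none overlapped one in M1. The first lies at chr2:125731762-125732395, 7.61 kb from a start of Shc4, a signalling adaptor, with 7.64-fold enrichment and a -log10 q of 18.5. The second lies at chr7:29155310-29156789 over the promoter of Fam98c (7.34-fold, 17.5). In the RNA results below Fam98c was not called at 24 h against 0 h (log2 fold change 0.12, limma adjusted p = 0.09). Of the rest, 4 lie at promoters of genes with roles in cell division or DNA repair. Knstrn, a spindle and kinetochore protein, has a 1300 bp peak with 6.62-fold enrichment, and Spc25, a subunit of the NDC80 kinetochore complex, has a 1454 bp peak with 6.70-fold. Neil3, a DNA glycosylase, and Fam83d, a spindle protein, have 6.62-fold and 6.36-fold. The widest absent peak spans 12876 bp at chr2:61305552-61318427, outside any gene, and the next, of 12693 bp, lies in Il18r1, the receptor chain for interleukin 18.

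Position was read against RefSeq starts for the 9565 absent peaks that could be placed, while 307 peaks on chromosome 18 were not analysed here. Promoters, meaning a start within 1000 bp, held 866 absent peaks, 9.05% of those placed against 29.4% of retained peaks. Another 5277 (55.2% against 47.1%) lay in gene bodies and 3422 (35.8% against 23.5%) between genes. Read the other way, 8.74% of M0 peaks at promoters were absent in M1, 26.7% of those in gene bodies and 32.1% of those between genes. By chromosome the share of absent peaks ran from 19.9% on chromosome 19 to 32% on X among chromosomes with over 100 M0 peaks. Exon and intron limits were not used here.

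Absent peaks also came in runs, that is, consecutive M0 peaks all absent in M1. They formed 6090 runs, of which 4043 were a single peak, and 207 runs of 5 or more held 1297 peaks. The longest run counts 19 peaks over 161 kb at chr1:184270807-184431537 and touches no coding gene. A run of 18 lies at chr10:16662943-16847973 and another of 18 at chr4:19712072-19830746, over Slc7a13, an amino acid transporter. Some runs lie over expressed genes. A run of 13 peaks spans 1864 kb and many other genes before it reaches Hpgd, and a run of 11 spans 38.9 kb in Fggy. Runs of 10 each lie over and beside Ank, a pyrophosphate transport protein, and Rasgrp3, an exchange factor that activates Ras. No background number of runs was computed.

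H3K18la peaks were called from other libraries and took no part in choosing the regions. An H3K18la peak of M0 overlapped 1122 absent peaks (11.4%), against 56.6% of retained peaks. An H3K18la peak of M1 overlapped 108 absent peaks (1.09%), against 40.4% of retained ones. Of the 1122 absent peaks with H3K18la in M0, 39 (3.48%) still had it in M1, while among retained peaks with H3K18la in M0 the share was 64.3%. Regions where M0 acetylation was not called in M1 thus nearly always lacked a lactylation call there too. Each share rests on 1 library per mark and state, so no replicate error can be given.

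Peak width and strength move with these shares. The order was the same in each class, but the gap in M0 was small among weak peaks. Among peaks above 2000 bp, 24.1% of absent and 72.2% of retained peaks had H3K18la in M0, and 1.31% and 50.6% had it in M1. Among peaks under 500 bp the shares in M0 were 5.38% and 12.2%, and in M1 0.862% and 9.46%. For peaks with a -log10 q above 6, an H3K18la peak of M0 was found at 62.8% of absent and 92.6% of retained peaks, and one of M1 at 2.67% and 65.7%. With a -log10 q under 3 (3794 absent peaks) the shares were 1.00% and 1.81% in M0, and 0.843% and 6.40% in M1. From 3 to 4 (3066 absent peaks) they were 5.06% and 6.91% in M0, and 0.848% and 9.31% in M1. At promoters, 398 of 866 absent peaks (46.0%) had H3K18la in M0 and 32 (3.70%) in M1. Peaks gained in M1, 12499 in all, give the mirror of this, with H3K18la at 0.480% in M0 and 4.89% in M1.

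**Figure D1:**
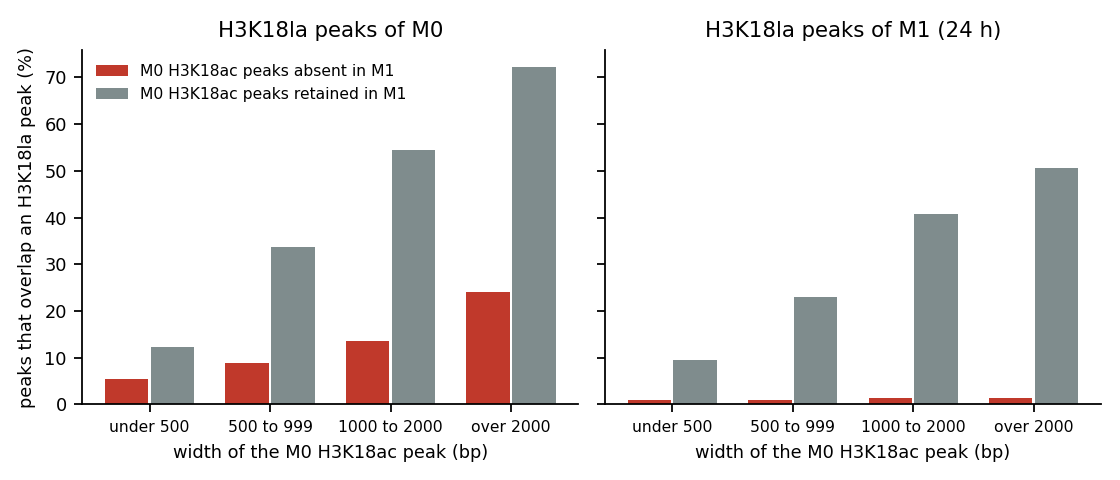
Percent of M0 H3K18ac peaks that overlap an H3K18la peak of M0 (left) or M1 (right), by the width of the H3K18ac peak in bp; red bars are peaks absent in M1 and grey bars are retained peaks, each from 1 library. The red bars rise with width to 24.1% for M0 lactylation and stay at or under 1.37% for M1 lactylation.

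Sequencing depth differed little between the 2 H3K18ac libraries and is given beside these counts because its part in them was not tested. The deposited normalization table lists 36.6 M (mega) mouse reads for M0 and 32.9 M for M1, with spike-in reads of 52482 and 50470 and a factor of 0.96. For H3K18la it lists 21.8 M and 21.0 M mouse reads in M0 and M1, with 310066 and 141688 spike-in reads and a factor of 0.46.

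The 1048 promoter windows whose start lies within 1000 bp of an absent peak and of no retained one were compared with the 12730 within 1000 bp of retained peaks alone and with all 32851 windows, each of 300 bases. Windows by absent peaks were less often rich in CpG: 45.8% had an observed over expected CpG ratio of at least 0.6, against 67.0% by retained peaks and 35.8% of all. CCGCCC, the site of SP and KLF factors, stood in 50.2%, 59.0% and 35.7%. GAGGAAGT, the site of the macrophage factor PU.1, stood in 3.72%, 3.52% and 3.2%, so the 3 sets were close. CCAAT was found in 36%, 36.6% and 37.4%, and TTTGAA in 16.5%, 12.5% and 17.9%. All motifs were read on both strands, and no match is taken as a bound site.

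Within the absent set these letters differed by the RNA of the gene. Of 76 windows whose gene fell at least 2-fold at 24 h (below), 42 (55.3%) held CCAAT, against 88 of 243 (36.2%) for the other tested genes. TTTGAA stood in 20 (26.3%) against 31 (12.8%), and TTTAAA in 9 (11.8%) against 23 (9.47%). CpG-rich were 77.6% against 63.4%. TTTCCCGC, a site of E2F, the factor family of DNA synthesis genes, stood in 5 (6.58%) against 6 (2.47%), and in 1.07% of all windows. The CCAAT, CHR and E2F letters were added to the search after the RNA values were seen, matches of different motifs may share bases, and windows of one gene can overlap each other. Of the 295 tested genes with an absent promoter peak, 21 reached 1 RPKM at 0 h alone and had to fall (below). Some of them, such as Hpgd, are in the 2-fold lower group, so this split is partly set by the filter. No test was made of these shares.

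RNA of genes that held an absent peak was lower after 24 h more often than RNA of genes in general. A peak was given to a gene when it overlapped the gene or the 1000 bp before it, which placed 6444 absent peaks on 4334 RefSeq genes. Of these genes 2276 were listed with RPKM values (reads corrected for the length of the gene and the depth of the library) and 1866 reached 1 RPKM in at least 4 libraries and were tested. With limma and an adjusted p under 0.05 at 24 h against 0 h, 956 of the 1866 (51.2%) were lower and 540 (28.9%) higher, where 37.3% and 39.9% of all 9942 tested genes were. The median log2 fold change was -0.16 against 0.02 for all tested genes, on the log2(RPKM + 1) scale, which understates the change of low genes. A gene that reached 1 RPKM at 0 h alone had to fall, and this held for 63 of the 1866. In bulk RNA, fewer cells of one kind and less RNA per cell cannot be told apart.

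The lower share was larger where the absent peak lay at the promoter. Of 945 genes with an absent promoter peak, 429 were listed and 295 tested. Of the 295, 181 (61.4%) were lower and 71 (24.1%) higher at 24 h, with a median of -0.28. At least 2-fold lower were 71 (24.1%), against 5.37% of all tested genes, and at least 2-fold higher were 8 (2.71%), against 6.27%. With H3K18la under the absent promoter peak in M0, 145 of 219 genes (66.2%) were lower and 64 at least 2-fold lower, and without it 36 of 76 (47.4%) and 7. Genes with a retained promoter peak and no absent one were lower in 37.2% and at least 2-fold lower in 4.55% of 7366 cases. Of the 295 genes 21 reached 1 RPKM at 0 h alone, and among the 227 with a mean of at least 1 RPKM over all libraries 55.9% were lower, against 48.5% with any absent peak and 35.8% of all genes under the same limit.

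Numbers of absent peaks per gene went the same way. With 1 absent peak 48.8% of 1211 genes were lower at 24 h, with 3 it was 57.6% of 151, and with 4 or more it was 64.1% of 184. Genes with an absent and no gained peak were lower in 56.2% of 1057 cases, and genes with both in 44.7% of 809. Genes with a gained and no absent peak were lower in 36% of 1802 cases and higher in 41.7%. Levels at 0 h were lower to begin with: the median was 4.56 RPKM for genes with an absent peak and 2.90 RPKM with an absent promoter peak, against 6.34 RPKM for all tested genes.

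Long genes have more room for a peak, and long genes were also lower more often at 24 h. Tested genes with an absent peak had a median span of 65.1 kb, against 18.1 kb without one. Under 10 kb, 60 of 103 genes with an absent peak (58.3%) were lower, against 22.9% of 2402 without. At 20 to 40 kb it was 45.3% of 338 against 38.6% of 1932, and above 80 kb 53.5% of 796 against 46.9% of 618. With the trend of RNA on span removed from each library, 787 genes with an absent peak (42.2%) were lower and 692 (37.1%) higher, against 36.7% and 40.7% of all genes. Absent promoter peaks kept their share across spans, from 55.6% to 67.2% lower, and had 168 lower and 73 higher with the trend removed.

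**Figure D2:**
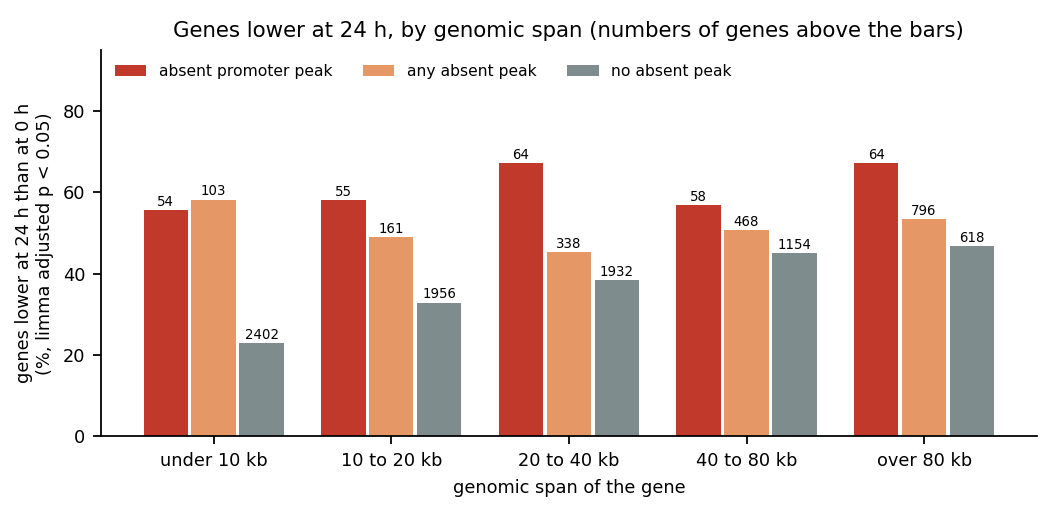
Percent of tested genes lower at 24 h than at 0 h (limma adjusted p under 0.05) by genomic span in kb, for genes with an absent promoter peak (red), any absent peak (orange) or none (grey), with numbers of genes above the bars. In every class of span the 2 sets with an absent peak stand above the grey bar, with the widest gap under 10 kb, where any absent peak gives 58.3% and none 22.9%.

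The share of genes at least 2-fold lower stayed above 17% from 4 h to 24 h at absent promoter peaks. At 4 h 1000 of the 1866 genes (53.6%) were lower and 627 (33.6%) higher, against 42.7% and 42.5% of all genes. At least 2-fold lower at 4 h were 17.3% of genes with an absent promoter peak, against 11.5% of all. This share was 30.2% at 8 h (10.2% of all), 24.1% at 16 h (6.27% of all) and 24.1% at 24 h. Genes with an absent peak elsewhere went from 16.6% at 4 h to 6.05% at 24 h, near the share of all genes. At least 2-fold higher at 4 h were 6.78% with an absent promoter peak, against 13.8% of all genes, with 5.76% against 11.3% at 8 h and 3.39% against 6.57% at 16 h. The 4 comparisons share the 0 h libraries, so they are not independent of each other. Of the 295 genes with an absent promoter peak, 21 reached 1 RPKM at 0 h alone, against 146 of all 9942. Such genes had to be lower at every later time, so part of these shares was set by the filter.

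**Figure D3:**
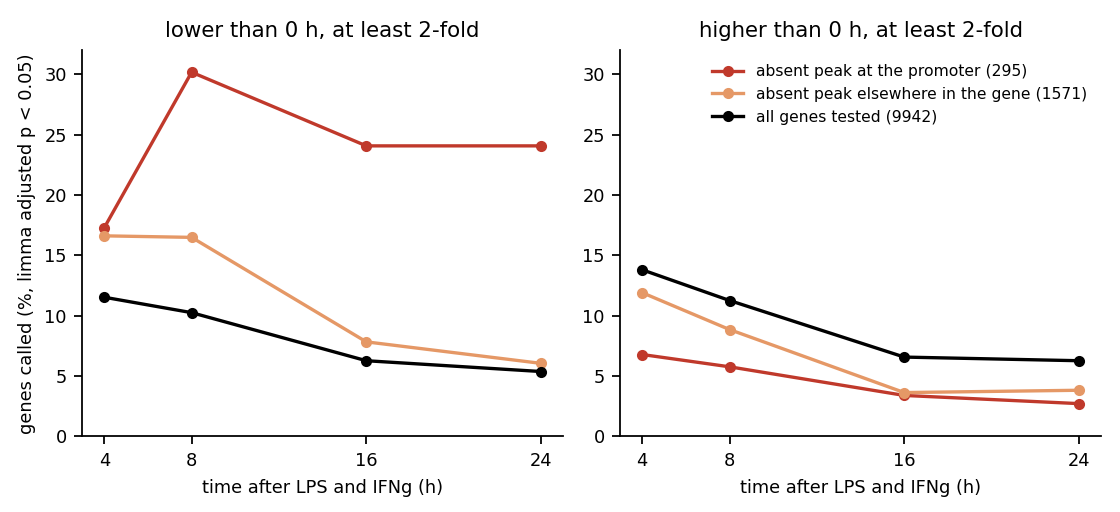
Percent of genes called at least 2-fold lower (left) or higher (right) than at 0 h by limma against hours of LPS and IFNg, for genes with an absent promoter peak (red), an absent peak elsewhere (orange) and all tested genes (black). The red line on the left stays above 17% at each time and the other 2 lines fall to between 5.37% and 6.05% at 24 h. Of the 295 genes of the red set, 21 reached 1 RPKM at 0 h alone and had to be lower at each later time.

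RPKM values do not keep the total RNA of a cell, and the scaling sets the level at which genes count as lower. When each library was rescaled to its summed RPKM, the median of all genes moved to -0.78 at 24 h, and 1781 genes with an absent peak were lower and 83 higher, against 86.7% lower among all. Relative to that median, genes with an absent peak stood at -0.13 and genes with an absent promoter peak at -0.19. At 4 h the median of all genes moved to -0.54, with both sets at -0.19 relative to it. Directions at 24 h in the gene groups below held under both scalings except where stated.

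Cell cycle genes with an absent peak fell steeply. Of 31 listed and tested cell cycle genes, 8 (25.8%) held an absent peak, against 18.8% of all tested genes. All 8 fell at 24 h, with a median log2 fold change of -3.06. The whole list fell too, with 28 of 31 lower and a median of -2.77, so a fall was not limited to genes with an absent peak. Ccnb2, the B-type cyclin of entry into mitosis, has its absent peak at chr9:70420555-70422103 (1549 bp, 5.83-fold, -log10 q 11.9), over the start and 26.8 kb from the nearest M1 peak. Its 4 libraries gave 60.1, 60.8, 58.4 and 49.2 RPKM at 0 h, 57.6, 61.6, 57.4 and 61.0 at 4 h, and 0.151, 0.144, 0.203 and 0.177 at 24 h. No 24 h library came near any 0 h or 4 h library, and the 4 h and 0 h libraries overlapped. The log2 fold change was -5.63 at 24 h (SE 0.06, limma adjusted p = 3.7e-34) and 0.06 at 4 h (adjusted p = 0.39).

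Plk1, the polo-like kinase of spindle assembly, fell sooner. Its absent peak covers 2340 bp at chr7:122158122-122160461 with H3K18la in M0 and none in M1. RPKM values were 23.9, 22.6, 21.6 and 20.2 at 0 h, 10.5, 8.12, 8.77 and 8.66 at 4 h, 0.866, 0.707, 0.814 and 0.710 at 8 h and 0.131, 0.0710, 0.185 and 0.201 at 24 h. The groups did not overlap from one of these times to the next, and the log2 fold change was -1.21 at 4 h and -4.33 at 24 h (SE 0.06, limma adjusted p = 5.0e-33). Rrm2, the small subunit of the enzyme that makes deoxynucleotides, has a 3883 bp absent peak. It went from 24.9, 20.8, 18.7 and 17.5 RPKM at 0 h to 1.49, 1.60, 1.68 and 1.05 at 24 h, a log2 difference of -3.13 (SE 0.08, limma adjusted p = 1.4e-25).

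Spc25 read 11.8, 10.6, 9.37 and 8.19 RPKM at 0 h and 1.33, 1.33, 1.20 and 1.42 at 24 h, and its nearest M1 acetylation peak was 68.9 kb away. Knstrn read 9.69, 9.81, 9.62 and 8.29 RPKM at 0 h and 0.361, 0.331, 0.327 and 0.425 at 24 h. Mcm3, a subunit of the replicative helicase, read 24.6, 21.6, 19.4 and 17.8 RPKM at 0 h and 4.22, 5.19, 5.28 and 4.51 at 24 h, and its 928 bp peak lies 187 kb from the nearest M1 peak. In each of the 3 genes every 24 h library was below every 0 h library, with log2 fold changes of -2.23, -2.93 and -1.91 in that order. Further promoters of this kind were those of Ccnb1 (-3.00), another B-type cyclin, Tyms (-1.96), the thymidylate synthase, Nusap1 (-3.80) and Prc1 (-2.72), both spindle proteins, Asf1b (-3.10), a histone chaperone, and Ckap2 (-3.07), Hmmr (-2.94) and Melk (-2.19), all log2 fold changes called by limma. Nusap1, Asf1b, Ckap2, Ccnb1, Hmmr, Prc1, Mcm3, Tyms and Melk were named after their values were seen. Stmn1, a protein that takes microtubules apart, holds its absent peak in the gene and fell by 4.35.

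**Figure D4:**
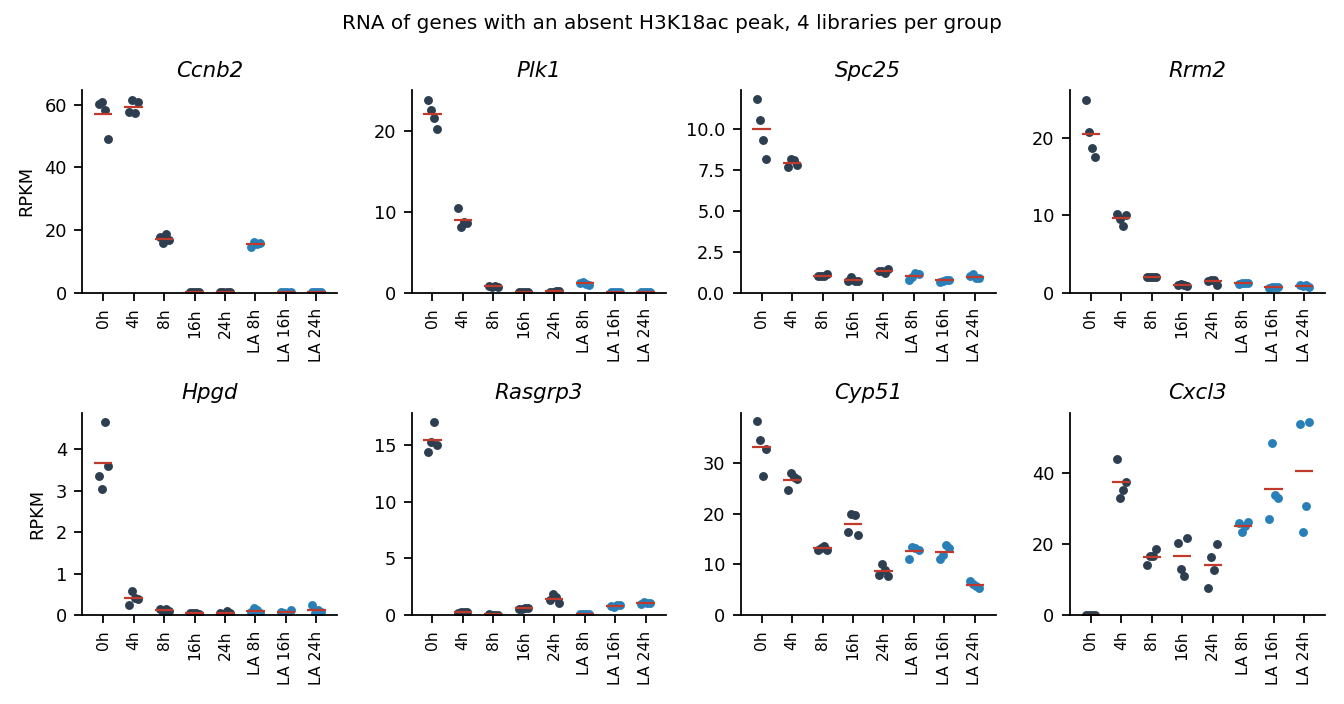
RPKM in each of the 4 libraries per group (points; bars mark means) at 0 to 24 h of LPS and IFNg (dark) and with added lactic acid (blue), for 8 genes with an absent H3K18ac peak. Ccnb2 holds its 0 h level at 4 h and drops by 8 h, Rasgrp3 and Hpgd drop by 4 h, Cyp51 steps down over the course, and Cxcl3 is the one that rises.

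Genes of resident-type and alternatively activated (M2) macrophages were a second group, most with absent peaks in the gene body. Of 24 tested, 9 (37.5%) held an absent peak, against 18.8% of all tested genes. All 9 fell at 24 h (median -1.49), while 8 of the other 15 fell. Of the 9, 2 reached 1 RPKM at 0 h alone and had to fall, and the other 7 fell with a median of -1.30. Hpgd, the enzyme that inactivates prostaglandins, had 4 absent peaks and no retained or gained one, and its nearest M1 peak was at least 232 kb from each. Its RPKM was 3.35, 3.03, 4.66 and 3.61 at 0 h, 0.240, 0.582, 0.413 and 0.394 at 4 h and 0.0557, 0.0151, 0.0908 and 0.0594 at 24 h. All 4 h libraries lay below all 0 h libraries and above all 24 h libraries, and the log2 fold change was -1.72 at 4 h and -2.13 at 24 h. Hpgd reached 1 RPKM at 0 h alone, so that its fall was set by the filter and no test is given. Peak strength was moderate, at 4.13-fold for the 3131 bp peak over the start and 4.09-fold for the 10231 bp peak in the gene.

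Receptors of this list were lower as well. Gpr34, a receptor for lysophosphatidylserine, read 10.4, 11.1, 14.8 and 11.9 RPKM at 0 h and 0.333, 0.491, 0.310 and 0.319 at 4 h, and at 24 h its highest library was at 0.187. Fcrls, an Fc receptor-like protein, read 176, 176, 194 and 181 RPKM at 0 h, 59.0, 59.5, 64.6 and 62.2 at 4 h and 13.1, 12.8, 13 and 14.8 at 24 h. In both genes the groups were fully apart, with log2 fold changes at 24 h of -3.57 and -3.67. Gpr34, like Hpgd, reached 1 RPKM at 0 h alone and had to fall. The absent peak of Gpr34, at chrX:13638277-13640781, is also counted for Cask (below). Cd163, the scavenger receptor for haemoglobin and haptoglobin, had 4 absent peaks and read 4.13, 4.27, 4.91 and 3.65 RPKM at 0 h, 0.447, 0.466, 0.452 and 0.517 at 4 h and 1.01, 1.52, 1.33 and 0.738 at 24 h. It was lowest at 4 h and higher again at 24 h (-1.83 and -1.30 against 0 h), and it was named after its values were seen. P2ry12, an ADP receptor, fell by 1.52 on the log2 scale and holds 4 retained and 2 gained peaks beside its 1 absent one.

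Lipid synthesis genes made up the third group, and their fall was not limited to genes with an absent peak. All 24 sterol and fatty acid synthesis genes tested fell at 24 h. Of them 6 (25%) held an absent peak, against 18.8% of all tested genes. These 6 had a median of -1.11, against -1.30 for the whole list. Of the 6, 1 reached 1 RPKM at 0 h alone and had to fall, and the other 5 had a median of -1.42. Cyp51, the lanosterol demethylase, has a 1533 bp absent peak over its start at chr5:4103815-4105347 with no M1 peak within 87.5 kb. Its RPKM was 38.3, 34.4, 27.4 and 32.7 at 0 h, 24.6, 28.1, 27.1 and 26.8 at 4 h and 7.83, 10.0, 8.79 and 7.74 at 24 h. The 4 h and 0 h libraries overlapped, the 24 h libraries lay below both, and the log2 fold change was -1.83 (SE 0.09, limma adjusted p = 6.1e-18). Lss, the lanosterol synthase one step earlier, fell by 1.42, Stard4, a sterol carrier, by 1.42, and Srebf2, the transcription factor of the pathway, by 0.81.

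Of 15 tested genes of lipid efflux and targets of the oxysterol receptor LXR, 3 (20%) held an absent peak, near the 18.8% of all tested genes. Of the 15, 10 were lower at 24 h, and of the 12 without an absent peak 8 were. Among the 3 with one, 2 desaturases were lower. Fads2, a desaturase of polyunsaturated fatty acids, read 52.2, 50.3, 40.3 and 50.2 RPKM at 0 h, 15.5, 16.5, 17.6 and 16.5 at 4 h and 6.85, 4.85, 6.45 and 4.24 at 24 h (log2 fold change -2.91). Scd1, the stearoyl-CoA desaturase, read 8.50, 9.87, 7.70 and 12.7 RPKM at 0 h, 0.863, 1.25, 1.16 and 1.06 at 4 h and 0.592, 0.603, 0.852 and 0.594 at 24 h (-2.67). In both genes each 4 h and 24 h library was below each 0 h library. Fads2 and Lss are among the genes of the 21 absent promoter peaks with an H3K18la peak in both states. Lpl, the lipoprotein lipase, also holds an absent peak in the gene and rose by 1.11 at 24 h, a call lost after rescaling to summed RPKM (0.13).

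Rasgrp3 and Ank show absent peaks in clusters along a whole gene. Rasgrp3 (chr17:75435870-75529054, plus strand) held 8 absent peaks, none retained and none gained, the largest spanning 10143 bp over its start with 4.99-fold enrichment. RPKM fell from 14.4, 15.3, 17.0 and 15.0 at 0 h to 0.199, 0.242, 0.255 and 0.278 at 4 h, and stood at 1.31, 1.82, 1.63 and 1.05 at 24 h. The 24 h libraries were above those at 4 h and below those at 0 h (-3.72 at 4 h and -2.75 at 24 h, limma adjusted p = 4.0e-27). Ank (chr15:27466677-27594909, plus strand) held 9 absent peaks and 1 retained one, and its RPKM went from 17.8, 17.1, 16.7 and 17.3 at 0 h to 7.32, 7.19, 6.50 and 7.14 at 4 h and 4.09, 3.90, 3.99 and 3.57 at 24 h. Slco2b1, an organic anion transporter with 6 absent peaks, and Rnf144b, a ubiquitin ligase with 8, fell by 3.41 and 2.05, though Slco2b1 reached 1 RPKM at 0 h alone and had to fall. These 4 genes were named after their values were seen.

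**Figure D5:**
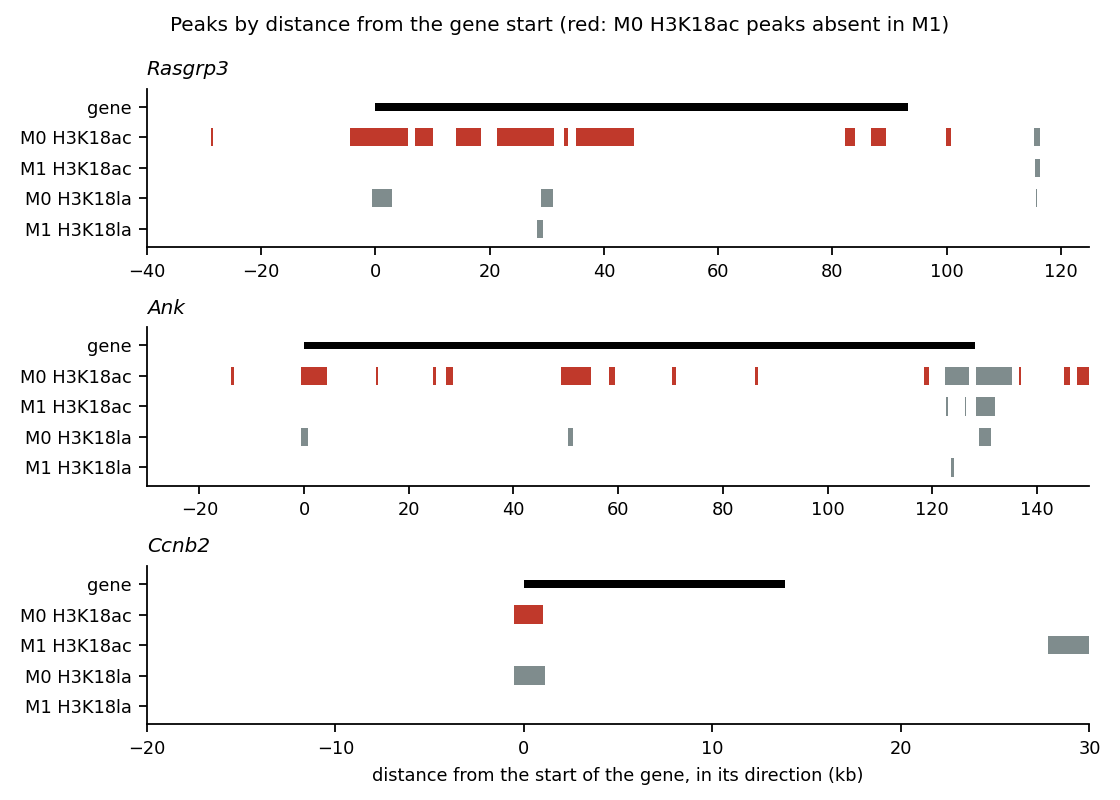
Peaks of each mark and state at Rasgrp3, Ank and Ccnb2 by distance from the gene start in kb, in the direction of the gene (black bar); red blocks are M0 H3K18ac peaks absent in M1 and grey blocks all other peaks. Rasgrp3 shows 10 absent peaks and 1 M1 H3K18ac peak in the window, Ank 13 and 3, and Ccnb2 1 and 1, the last well beyond the end of the gene.

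Some genes with an absent peak changed direction over time or held mostly retained peaks. Itga4, the alpha 4 integrin, read 7.04, 7.65, 8.76 and 6.82 RPKM at 0 h, 25.3, 26.4, 27.2 and 26.4 at 4 h and 1.38, 1.78, 2.01 and 0.691 at 24 h. It was thus above its 0 h level in each 4 h library and below it in each 24 h library (1.68 and -1.82). Arhgap18 and Elmo1, an adaptor in engulfment, fell by 1.19 and 1.00 and had 7 and 26 retained peaks beside 2 absent ones each.

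Of 26 tested inflammatory (M1) mediators 2 (7.69%) held an absent peak, against 18.8% of all tested genes. They were Cxcl3 and Il12b, and both rose. Cxcl3, a chemokine for neutrophils, has a 4334 bp absent peak that reaches its start, at 3.21-fold and a -log10 q of 3.22. It read 0.0200, 0.0243, 0 and 0.0413 RPKM at 0 h, 44.0, 33.0, 35.3 and 37.5 at 4 h and 7.54, 16.4, 12.8 and 20.1 at 24 h. The 24 h difference was 3.82 on the log2 scale (SE 0.23, limma adjusted p = 1.2e-15). Il12b, the shared chain of interleukins 12 and 23, read 119, 132, 146 and 133 RPKM at 4 h and between 0.540 and 0.856 at 24 h, with no 0 h library above 0.0306. Its absent promoter peak is 326 bp wide, and neither gene had H3K18la at an absent peak. Of 24 tested pattern recognition and signalling genes 3 (12.5%) held an absent peak, and 12 of the 24 were higher. Of these 3, Irak3, a brake on Toll-like receptor signalling, rose by 1.42. Ifngr1, a chain of the interferon gamma receptor, rose by 0.13 but stood at -0.84 after rescaling to summed RPKM. The call of Ifngr1 was lost without 0 h replicate 1 or 4 or 24 h replicate 1 or 2, at 0.09 to 0.12.

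Other genes with an absent promoter peak rose. Egln3, a prolyl hydroxylase of the hypoxia pathway, read 8.50, 10.1, 12.2 and 6.84 RPKM at 0 h, 1.97, 1.46, 2.53 and 1.77 at 4 h and 35.3, 40.5, 38.8 and 43.3 at 24 h. It was first below and then above its 0 h range (-1.81 and 1.98, limma adjusted p = 6.8e-15 and 1.8e-15). Gstt1, a glutathione transferase, rose by 1.88, Layn, a hyaluronan receptor, by 1.42, Sdc1, the proteoglycan syndecan 1, by 1.39, Cxcl14, a chemokine, by 0.93 and Tmem176a by 0.83. The calls of Cxcl14 and Tmem176a were lost after rescaling to summed RPKM, at 0.05 and 0.03. Of 21 tested glycolysis and lactate genes 2 (9.52%) held an absent peak, against 18.8% of all tested genes, and 19 of the 21 were higher. These 2, the hexokinases Hk2 and Hk1, hold 1 absent peak each beside 5 and 7 retained ones. Hk2 rose by 1.58, and Hk1 rose by 0.33 but stood at -0.60 after rescaling to summed RPKM.

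Genes with the most absent peaks were long and changed in both directions. Fggy held 22, Ctnnd2 held 20, Vps13d and Foxp1 15, Hivep3 14, Rad51b 13 and Cask 12. Cacna1d, a calcium channel subunit named after its values were seen, also held 12, with fewer bases under them, and rose by 0.82 (limma adjusted p = 3.0e-10). The log2 fold changes of the other 7 at 24 h ran from -0.88 (Rad51b, a recombination protein, limma adjusted p = 1.7e-14) to 0.51 (Fggy, a carbohydrate kinase, adjusted p = 1.9e-09). Ctnnd2 and Hivep3 did not pass the test, at 0.13 and -0.03. Foxp1, a forkhead transcription factor, fell by 0.40 at 24 h and was higher at 4 h by 0.79. These 7 genes also held retained peaks, from 4 in Cask to 28 in Foxp1. Of further genes with many absent peaks, named after their values were seen, Ldlrad3 with 11 fell by 0.30 (-0.11 and not called with the span trend removed) and Efcab11 with 9 fell by 1.49. Signs of Fggy and Ctnnd2 turned after rescaling, and those of Hivep3 and Cask with the span trend removed. The calls of Vps13d (-0.13) and Cask (-0.11) were lost without 24 h replicate 4, and that of Vps13d also with the span trend removed (-0.01).

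Of 20 tested macrophage identity genes 3 (15%) held an absent peak, near the 18.8% of all tested genes. Mertk, a receptor for engulfing dying cells, fell by 0.58, the transcription factor Runx1 fell by 0.29 (-0.10 and not called with the span trend removed), and Mitf, another, rose by 0.43 but stood at -0.46 after rescaling to summed RPKM. Of 24 tested histone acyl writers, erasers and readers 3 (12.5%) held one, and 13 of the 24 were lower at 24 h. Kat2b, an acetyltransferase, fell by 0.50, Brd3, a reader, fell by 0.43, and Hdac9, a deacetylase with 10 absent peaks, gave 0.03 (limma adjusted p = 0.75) and -0.76 after rescaling. Of 25 tested lysosome and endocytosis genes 1 (4%) held an absent peak, while 5 of the 25 were lower and 16 higher. It was Atp6v0d2, a subunit of the lysosomal proton pump, which fell by 0.55.

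At 24 h with against without lactic acid, 433 of the 1866 (23.2%) were lower and 440 (23.6%) higher, against 21.7% and 25.5% of all tested genes. With an absent promoter peak 98 of 295 (33.2%) were lower and 61 (20.7%) higher, with a median of -0.02. With H3K18la at that peak in M0, 84 of 219 (38.4%) were lower. Of the genes above, Mcm3 fell by 0.47 (3.30, 3.28, 3.19 and 2.96 RPKM with lactic acid), Cyp51 by 0.45 (6.74, 6.03, 5.81 and 5.41) and Ank by 0.39 (2.64, 2.66, 2.61 and 2.97). In all 3 the libraries with lactic acid lay below those without. Egln3 rose by 1.16 (104, 72.0, 84.4 and 98.9 RPKM) and Cxcl3 by 1.44 (53.9, 23.4, 30.7 and 54.4), each above every library without.

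Those lactic acid counts depended on the fit. With the 2 groups alone in the model 140 (8.78%) were lower and 218 (13.7%) higher, near the 9.0% and 13.2% of all genes in that fit. Of the genes with an absent promoter peak 32 of 201 (15.9%) were then lower and 33 (16.4%) higher. Lower calls no longer outnumbered higher ones, but their share was still above the 9.0% of all genes in that fit. Rescaled to summed RPKM, where the median of all genes moved to -0.20, 939 were lower and 93 higher. Relative to that median, genes with an absent promoter peak stood at 0.04.

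RNA of the labelled cell type was present at 0 h and 24 h. All 20 macrophage identity genes were measured, with a summed level of 20861 to 23335 RPKM at 0 h and 39660 to 52409 at 24 h. Of 14 neutrophil markers 7 were measured, and their sum went from 17.3 to 25.3 RPKM at 0 h to 428 to 782 at 24 h, of which Lcn2, also made by stimulated macrophages, was at least 92.7%. Within that list S100a8 went from 2.37 to 4.4 up to 12.9 to 20.3 RPKM, and Ltf and Ngp were lower in every 24 h than 0 h library. Markers of lymphocytes (2 of 13 measured, summed 5.13 to 6.72 RPKM at 0 h and 3.67 to 5.86 at 24 h) and of stromal and endothelial cells (8 of 11, 3.22 to 4.16 and 2.64 to 3.17) were also measured, while dendritic cell markers (5 of 10) went from 1.94 to 2.32 RPKM at 0 h to 2.94 to 4.14 at 24 h, and none of 10 erythroid and mast cell markers was measured. Their part in the results was not tested. In a principal component analysis 24 h replicate 4 stood apart from the other 24 h libraries on the second component (17.9 against 8.65 to 11.6). Without it 910 genes with an absent peak (48.8%) were lower and 548 (29.4%) higher at 24 h, against 36.7% and 39.0% of all genes. In the lactic acid comparison 552 (29.6%) were then lower and 463 (24.8%) higher, against 24.8% and 29.9% of all.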

How the data were processed

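Peak lists and an RNA table were used as deposited; 38 samples entered, 6 ChIP-seq and 32 RNA-seq libraries. Per the submitters' processing notes the tools were Bowtie2 2.2.6, HISAT2 2.1.0, SAMtools 0.1.19, MACS2 2.2.1, featureCounts 1.5.0-p1 and edgeR, on mm10 (GRCm38). In the deposited broad peak lists each peak has the authors' fold enrichment (a ratio), its -log10 p and q, and a score. The deposited normalization table gives mouse and spike-in read counts, a normalization factor and normalized mouse reads. The factor was not applied to the peak lists here, and the normalized reads are not given. The deposited RNA table holds RPKM per library, with the authors' log2 fold changes and p-values, of which only the RPKM were used.

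The members and lists were chosen with earlier results of these data known. Overlap was counted from 1 shared base and compared with bedtools 2.31.1. Genes and promoters came from RefSeq tables of GRCm38.p6 with no genome sequence: 11168 of 11184 listed genes matched, 17492 of 21887 coding genes had a start, and chromosome 18 starts were not analysed here. Exact motif letters were therefore searched in promoter windows and not at peak centres. limma 3.58.1 (R 4.3.3, trend) was fitted to log2(RPKM + 1) of 9942 genes at 1 RPKM or more in at least 4 libraries, with 8 group means, 24 residual degrees of freedom and Benjamini-Hochberg adjustment over all tested genes. The RPKM give no counts, so the depth of the RNA libraries is unknown. Both steps were tested on simulated data. Alternatives covered the overlap, peak thresholds, link to genes, pseudocount, filter, scaling, groups in the fit, replicate block and leaving out libraries; removal of the span trend, leaving out lactic acid libraries and 5 promoter motifs were added after seeing the data. Named were, by rule, the 10 absent peaks with the highest -log10 q and the 5 widest, the 8 genes with the most absent peaks, up to 8 genes each way with an absent promoter peak and the largest change (mean of at least 3 log2 units), up to 4 list members with an absent peak per list, and any of Csf1r, Cx3cr1, Mrc1, Spi1, Maf, Nos2, Arg1, Tnf, Il1b, Abca1 and Apoe with one; 17 genes named beyond the rule are marked in the text. Some genes and 1 gene list that the rule covers are not reported here.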

Additional observations from a re-analysis of the deposited data

Results flagged for a closer look

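Of the 19 genes given by library, 76 groups of 4 were looked at for a library far from the other 3, and 5 were found, where chance alone gives about 1 in 20 groups. Knstrn had its lowest 0 h value, 8.29 RPKM, in replicate 4, with the others between 9.62 and 9.81. Gpr34 had 0.491 RPKM in 4 h replicate 2, the other 3 between 0.310 and 0.333. Fcrls had 14.8 RPKM in 24 h replicate 4, and Scd1 had 0.852 RPKM in 24 h replicate 3, in each case the highest of the group. Ank had 2.97 RPKM in replicate 4 of the lactic acid group at 24 h, above the other 3.

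In 2 of the 19 genes the calls at 4 h and at 24 h had opposite signs. These calls use the same libraries, so a difference between the times was set by the choice and no test is given. The 24 h against 4 h difference of Itga4 was -3.50 on the log2 scale. Egln3 was higher at 24 h than at 4 h by 3.80. All 4 libraries of each time lay on the stated side.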

How the results depend on the processing

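The number of absent peaks was 9397 when an M1 peak within 1000 bp also counted as shared and 14204 when only peaks at least 50% covered counted as shared, while thresholds on the M0 peaks left 1545 (-log10 q of at least 5) and 1340 (4-fold enrichment). At that -log10 q the shares rose to 47.6% with H3K18la in M0, 2.2% in M1 and 19% at promoters; H3K18la within 1000 bp gave 1.55% in M1, and a 2000 bp window gave 11.1% at promoters. For 24 h against 0 h, lower and higher genes numbered 1781 and 83 after rescaling to summed RPKM, 181 and 71 with promoter peaks only and 296 and 98 with a -log10 q of at least 5, the last 2 settings testing fewer genes; promoter genes at least 2-fold lower numbered 155 after rescaling. For 4 h, promoter peaks gave 172 and 76 and the -log10 q limit 275 and 142, and rescaling gave 315 higher. For lactic acid the 2 groups alone gave 140 and 218, rescaling 939 and 93, promoter peaks 98 and 61 and the -log10 q limit 133 and 99. The cause of the shifts with scaling was not tested.

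Leaving out 1 library at a time gave 855 to 968 lower and 518 to 548 higher genes at 24 h, 55 to 72 promoter genes at least 2-fold lower (55 to 57 without a 0 h library, since genes above 1 RPKM at 0 h alone then leave the test), 918 to 988 and 590 to 621 at 4 h, and 355 to 552 and 391 to 463 for lactic acid. Correlations between the deviations of same-numbered replicates ran from -0.64 to 0.51, which does not settle whether the numbers pair samples. The main fit used no pairing. The replicate block gave 951 lower and 537 higher at 24 h and 423 and 436 for lactic acid, and moved no count by over 1.5 times.

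Signs turned at 24 h after rescaling in Fam98c (-0.51), Fggy (-0.31), Ctnnd2 (-0.54), Mitf (-0.46), Ifngr1 (-0.84), Hdac9 (-0.76) and Hk1 (-0.60), and with the span trend removed in Hivep3 (0.17) and Cask (0.041). For lactic acid they turned after rescaling in Fggy (-0.17), Rac3 (-0.024), Mitf (-0.00146), Cacna1d (-0.0053), Fcrls (-0.11), Irak3 (-0.054) and Arhgap18 (-0.27), and in Ldlrad3, where leaving out 1 library gave values from -0.11 (without 24 h replicate 4) to 0.059. Windows of 500 bp at peak centres were not run, as no genome sequence was used here. One library per mark and state leaves the peak sets without replicate error.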
